A study of Arabidopsis thaliana with 15 samples.

Results

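AT1G66810, also called AtC3H14, encodes a protein with a tandem pair of CCCH zinc fingers and is known as a regulator of secondary walls. It was followed here through an induced differentiation of xylem cells in Arabidopsis thaliana leaf disks. The gene was picked by its locus and is read by 1 of the 22746 probe sets that are not controls. Probe sets that followed it most closely from array to array were then ranked, and the 20 nearest that carry a single gene name are described with it. Disks of 1 mm were taken from rosette leaves of the ecotype Col-0 at an age of 25 days. All cultured disks received the same 3 compounds. These were 1.25 mg/L 2,4-D, an auxin, 0.25 mg/L kinetin, a cytokinin, and 10 µM bikinin, an inhibitor of GSK3 kinases that act in brassinosteroid signalling. The groups are uncultured disks (0 h) and disks after 12, 24, 36 or 48 h of culture, each measured on 3 arrays, which makes 15. Disks cultured without the compounds were not analysed here, so the compounds, the cutting, the culture and passing time cannot be told apart.

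Xylem cells lay down a secondary wall of cellulose, xylan and lignin inside the primary wall and then die, leaving hollow conducting tubes. NAC master regulators switch on this programme, and the MYB factor MYB46 acts below them. AtC3H14 is known to be a target of MYB46 and to switch on genes of cellulose, xylan and lignin synthesis. Its zinc fingers resemble those of animal tristetraprolin, which binds messenger RNAs and leads them to decay. AtC3H15 (AT1G68200) is its closest relative in Arabidopsis and is known to act beside it in walls and in anthers. The platform annotation gave AtC3H15 no probe set, and it was not analysed here.

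The signals are MAS5 intensities on a linear scale, with a mean, trimmed by 2%, of 500 to 500.1 on each array and medians of 121.8 to 169.9. Arrays of the same time correlated at 0.882 to 0.954 over log2 signals, and arrays of 0 h with later ones at 0.564 to 0.709. No array duplicated another. Whether the 3 arrays of a time came from separate cultures is not stated, so each p-value speaks of the spread among these arrays alone, which may be technical. The third array of 36 h carries no number in its label and is called replicate 3 by order alone. Signals under 34.2, the cutoff of the filter on dim probe sets, are treated here as uncertain. Fewer cells of a type and less RNA per cell cannot be told apart in these bulk samples.

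AT1G66810 was low in fresh leaf disks, lowest at 12 h, mixed at 24 h and high at 36 and 48 h. At 0 h its signal was 64.3, 92 and 76.9. At 12 h it was 21.4, 26.4 and 53.3, with the first and second arrays under the cutoff. At 24 h it was 59.5, 278.4 and 67.2. Replicate 2 of 24 h thus stood apart, since the other two arrays of that time lay within the range of 0 h or just below it. At 36 h the signal was 486, 511.7 and 200.4. At 48 h it was 673.4, 401.3 and 306.6. All arrays of 36 and 48 h lay above all arrays of 0 and 12 h, and the highest array of the series had 31.5 times the signal of the lowest. The means were 77.7 ± 13.8 for 0 h, 33.7 ± 17.2 for 12 h, 135 ± 124 for 24 h, 399 ± 173 for 36 h and 460 ± 190 for 48 h (SD, n = 3 each). The order of the means from low to high was therefore 12, 0, 24, 36 and 48 h.

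**Figure D1:**
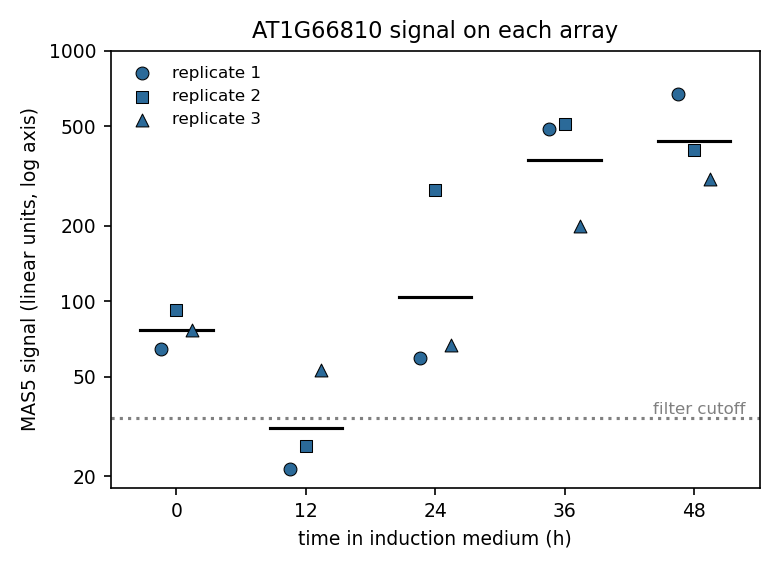
Signal of AT1G66810 (MAS5 intensity, logarithmic axis) against hours of culture; each point is 1 array, marked by its replicate number, horizontal bars show the geometric mean of the 3 arrays of a time, and the dotted line is the filter cutoff of 34.2. The arrays of 12 h lie at 21.4 to 53.3 and those of 48 h at 306.6 to 673.4, while 24 h spans 59.5 to 278.4.

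AT1G66810 rose 4.78-fold at 36 h against 0 h and 5.67-fold at 48 h against 0 h. On the log2 scale the difference was 2.26 ± 0.58 at 36 h (SE; limma, adjusted p = 0.00562) and 2.50 ± 0.58 at 48 h (adjusted p = 0.00294). Adjustment ran over all 17856 probe sets kept after the filter, and an adjusted p under 0.05 is called. In these comparisons 32.2% of all kept probe sets were called higher at 36 h and 33.2% at 48 h, so a call upward against 0 h is common in this series. Measured from its low point at 12 h, the gene rose 11.8-fold at 36 h (3.56 on the log2 scale, adjusted p = 0.00182) and 14.02-fold at 48 h (3.81, adjusted p = 0.000714). Calls upward were less common there, at 11.8% and 16.5% of kept probe sets. The 12 h mean of AT1G66810, 33.7, lay under the cutoff of 34.2. The sizes of all its differences that involve 12 h are therefore uncertain. The median of all probe sets shifted by 0.15 at 36 h and 0.19 at 48 h against 0 h, and with every array centred on its median the differences of AT1G66810 were 2.07 (adjusted p = 0.0126) and 2.28 (adjusted p = 0.00735). Each of these 4 calls stood under all 23 alternative settings of the processing. Over the whole time course the F test gave F = 14.98 (adjusted p = 0.000504), with 59.8% of kept probe sets called.

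The low point at 12 h and the single steps between neighbouring times did not pass the test. At 12 h the gene lay 2.47-fold below 0 h, a difference of -1.31 ± 0.58 on the log2 scale (SE; limma, adjusted p = 0.0869), and all 3 arrays of 12 h lay below all 3 of 0 h. For this comparison 21.8% of kept probe sets were called lower. The call turned on single libraries, since the adjusted p was 0.0485 without replicate 3 of 12 h and 0.0314 without replicate 2 of 24 h. At 24 h against 12 h the difference was 1.74 (adjusted p = 0.171), again with no overlap of the arrays, and 0.98% of kept probe sets were called higher. With the replicate number as a block this step stayed at 1.74 (adjusted p = 0.128).

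At 36 h against 24 h the difference was 1.83 (adjusted p = 0.235), with overlapping arrays and 0.112% of kept probe sets called higher. Between 48 h and 36 h it was 0.24, with a 95% interval of -1.02 to 1.51 and overlapping arrays. No probe set at all, 0%, was called by limma in that last step. An unadjusted limma p under 0.05 was found for 639, or 3.58% of kept probe sets. That is a smaller share than this threshold would give with no change at all. Set against 24 h, the 48 h arrays differed by 2.07 (adjusted p = 0.0553) with no overlap, and 4.09% of kept probe sets were called higher. Without replicate 2 of 24 h this difference was 2.79 (adjusted p = 0.0167). At 24 h against 0 h, where 27.3% of kept probe sets were called higher, the difference was 0.43 with a 95% interval of -0.84 to 1.70, and without replicate 2 of 24 h it was -0.28. The neighbours in the order of levels that were not separated by the test were therefore 12 and 0 h, 0 and 24 h, 24 and 36 h, and 36 and 48 h.

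**Figure D2:**
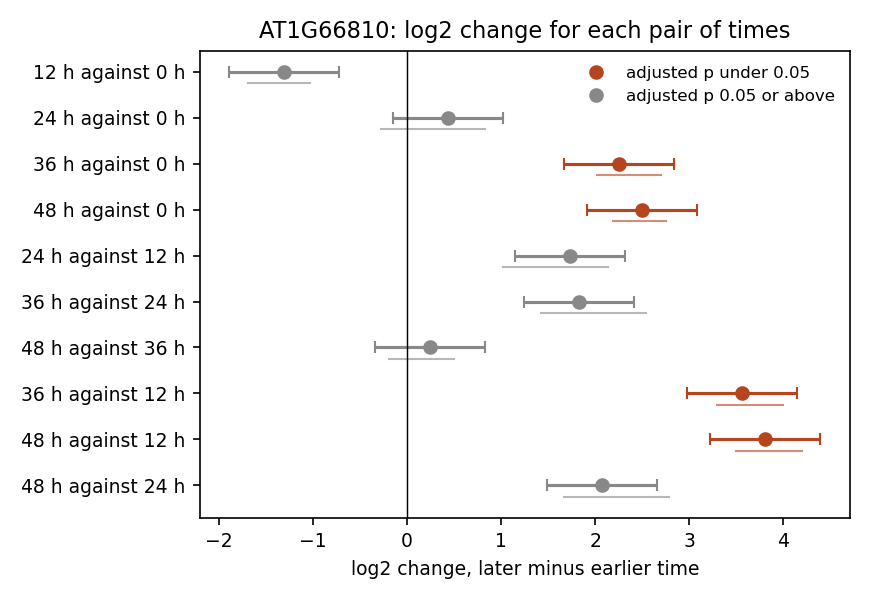
Log2 change of AT1G66810, later minus earlier time, for each of the 10 pairs of times; points are estimates of the fit over 15 arrays, bars their SE, and the thin line under each point runs from the lowest to the highest estimate when 1 array is left out. The 4 pairs that set 36 or 48 h against 0 or 12 h have an adjusted p under 0.05.

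Arrays of the same time differed more for AT1G66810 than for most probe sets. Its SD of log2 signal within times was 0.77, larger than that of 76.8% of kept probe sets, whose median was 0.44. Replicate 2 of 24 h, above its time, and replicate 3 of 36 h, below it, lay farthest from their time means on the log2 scale. This spread within times lets profiles be compared both over the time course and around the time means.

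The profile nearest to AT1G66810 was that of AT5G26330, a cupredoxin family protein, a class of small copper-binding proteins of the cell surface. Pearson's r of its log2 signal with AT1G66810 over the 15 arrays was 0.978, and 0.901 for the deviations from the time means. Both are descriptions of profiles read on the same 15 arrays, so that each array's time and handling enter both profiles. The same holds for all correlations below. The signal of AT5G26330 was 140.2, 123 and 46.3 at 0 h, then 17.6, 28.4 and 50.9 at 12 h. It was 133.1, 967.3 and 90.1 at 24 h, 2137.6, 2746.6 and 399.3 at 36 h, and 2391.2, 1366.2 and 793.2 after 48 h. The high array of 24 h and the low array of 36 h were the same libraries as for AT1G66810. A second cupredoxin, AT3G27200, followed with r = 0.950 and the highest r of the nearest 20 within times, 0.915. AT3G27200 had 151.5, 237.7 and 165.9 at 0 h and 162.1, 135.1 and 204.9 at 12 h. It had 348.3, 2237 and 412.1 at 24 h, 4648.7, 6569.8 and 1726 at 36 h, and 6063.9, 5300.1 and 4667.2 after 48 h. Its 0 and 12 h arrays overlapped, as did those of AT5G26330 and unlike those of AT1G66810.

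Among genes with a known role in walls, TBL34 (AT2G38320) and PRX66 (AT5G51890) were among the nearest 20. TBL34 belongs to a family of enzymes that acetylate xylan, and its r with AT1G66810 was 0.944. TBL34 had 38.7, 55.6 and 59.5 at 0 h, 1.9, 22.7 and 39.9 at 12 h, 90.4, 220.5 and 87.9 at 24 h, 682.6, 694.3 and 229.1 at 36 h, and 1047.1, 613.2 and 489.9 after 48 h. Its 12 h values lay under or near the cutoff, so its fold against 12 h is uncertain. PRX66 is a class III peroxidase, the family whose members couple lignin units in walls, and its r was 0.919. PRX66 had 808, 787.4 and 725 at 0 h, 442.2, 300.7 and 268.8 at 12 h, 469.4, 937.1 and 842.6 at 24 h, 8371.3, 6549.1 and 3389 at 36 h, and 11969.2, 7419.7 and 7829.5 after 48 h. It was the brightest probe set of the nearest 20, and all its 12 h arrays lay below all its 0 h arrays.

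Protein-degrading and signalling enzymes made up another part of the nearest 20. AT4G04460, an aspartic protease also known as PASPA3 and used as a marker of developmental cell death, had r = 0.942. Its signal averaged 38.98 ± 18.9 for 0 h, 24.7 ± 7.44 for 12 h, 87.0 ± 79.0 for 24 h, 484 ± 267 for 36 h and 705 ± 146 for 48 h (SD, n = 3 each). A second aspartic protease, AT2G03200, had r = 0.923 but stayed dim, with a highest array of 131.3 at 48 h. AT1G03920, a protein kinase of the NDR type, had r = 0.966. It averaged 59.1 ± 19.8 for 0 h, 23.0 ± 9.92 for 12 h, 94.0 ± 70.9 for 24 h, 509 ± 209 for 36 h and 638 ± 219 for 48 h (SD, n = 3 each). AT5G48740 (r = 0.927) is a receptor kinase with leucine-rich repeats, and AT5G17600 (r = 0.922) is a RING-type protein, a class that marks other proteins with ubiquitin. AT5G03510 (r = 0.919) encodes a zinc finger protein of the C2H2 type.

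Further genes of the nearest 20 act on pectin, carry solutes or are given here by family or by locus alone. AT1G23460 (r = 0.964) is a pectin lyase-like protein of the polygalacturonase kind, read by a probe set of the type that can also bind related transcripts. AT5G38610 (r = 0.918) belongs to the inhibitors of invertase and pectin methylesterase. AT3G45710 (r = 0.951) belongs to the NRT1/PTR transporters and had signals of 125.3 to 494.5 at 48 h, against 1.1 to 1.9, far under the cutoff, at 12 h. AT2G27740 (r = 0.961) and AT4G27435 (r = 0.947) are members of the families DUF662 and DUF1218, whose domains were named before a function was known. AT1G47410 (r = 0.945), AT3G11490 (r = 0.941), AT3G03320 and AT5G61340 (r = 0.930 each), and AT2G41610 (r = 0.922) complete the 20.

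The nearest 20 shared the time of the lowest mean and the array-to-array departures of the AT1G66810 profile, but not all had a clear low point at 12 h. All 20 had their lowest time mean at 12 h, against 21.1% of all kept probe sets. The log2 difference at 12 h against 0 h ran from -3.11 for AT3G45710, with signals under the cutoff, to -0.14 for AT3G27200. The arrays of 12 and 0 h overlapped in many of the 20, such as AT5G26330 and AT3G27200, and not in others, such as PRX66. Of the 20, 18 had their highest time mean at 48 h and 2 at 36 h, against 23.2% and 12.8% of all kept probe sets. Replicate 2 was the highest of the 24 h arrays in all 20, against 22% of all kept probe sets, and replicate 3 was the lowest of the 36 h arrays in all 20, against 34.9%. The difference in log2 signal between 48 h and 12 h had a median of 4.31. For the 11 genes whose 12 h mean reached the cutoff it ran from 1.87 for AT5G17600 to 5.52 for AT2G27740. The other 9 had a 12 h mean under the cutoff, so the sizes of their differences, up to 7.17 for AT3G45710, are uncertain. Because the 20 were chosen by these same arrays, the shares describe them and test nothing. Their r of deviations from the time means had a median of 0.743 and ran from 0.520 for PRX66 to 0.915 for AT3G27200. The 20 genes lay on all 5 chromosomes, with 3, 4, 4, 2 and 7 genes on chromosomes 1 to 5.

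**Figure D3:**
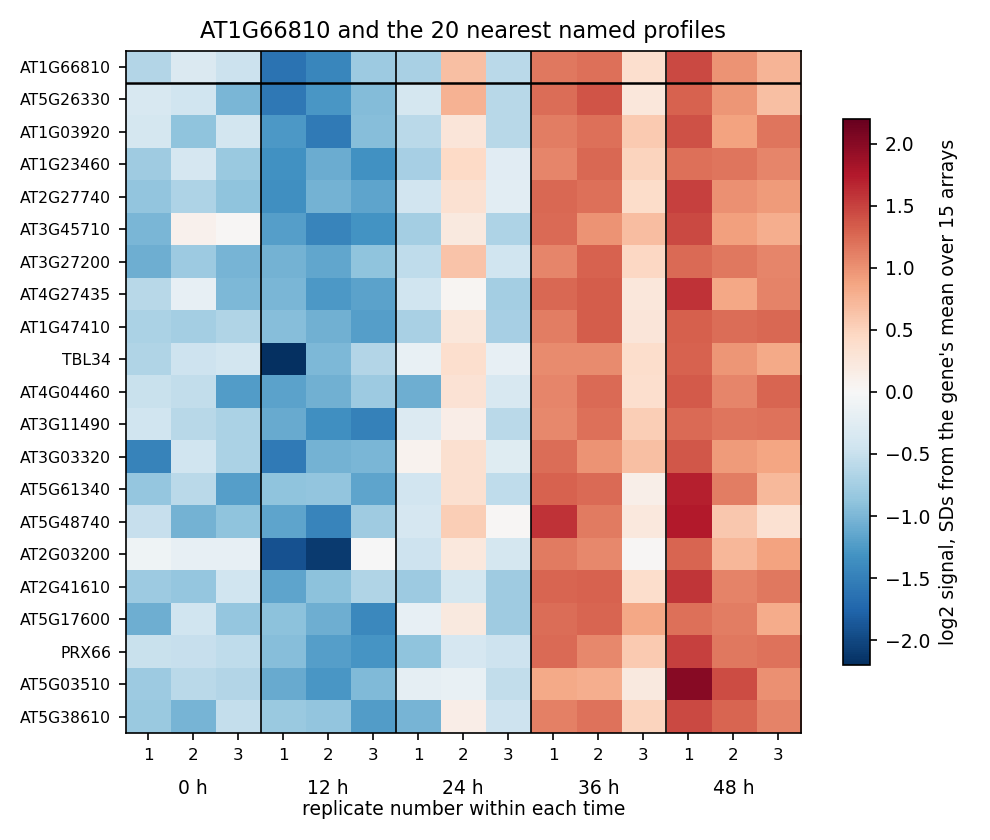
Log2 signal of AT1G66810 (top row) and its 20 nearest named profiles on the 15 arrays, each row centred on its mean and divided by its SD, with genes in order of r. All rows have their lowest time mean at 12 h, and replicate 2 of 24 h and replicate 3 of 36 h depart from their times in the same direction in every row.

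The nearest 20 are the nearest among probe sets with a gene name. Over all kept probe sets, 85 had r above 0.9 with AT1G66810, and of the 100 highest, which reached down to r = 0.895, 50 carried a single gene name. Of the 20 highest of all, 9 were named. For comparison, the median r over all kept probe sets was 0.024, with a first percentile of -0.789 and a 99th of 0.867. The last gene inside the named 20 was AT5G38610 at overall rank 44, and the values on either side of that line form a continuum. How many of the 20 were shared with another measure depended on that measure. Spearman's rank correlation shared 9 of the 20, the 12 cultured arrays alone shared 10, and the 5 time means shared 2. Leaving out replicate 2 of 24 h, the array that stood apart, shared 14, and without it the original 20 still had r of at least 0.926 with a median of 0.950. Leaving out replicate 1 of 24 h gave the lowest shared count, 12.

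Genes of xylan synthesis followed AT1G66810 over the time course. Of 21 listed genes 4 were measured, namely IRX15 (AT3G50220), IRX15-L (AT5G67210), GUT2 (AT1G27440) and IRX10L (AT5G61840). IRX15 and IRX15-L are needed for normal xylan deposition, and GUT2 and IRX10L belong to the enzymes that build the xylan backbone. All 4 were called higher at 36 h and at 48 h against 0 h, beside 32.2% and 33.2% of all kept probe sets, and again at 36 h and at 48 h against 12 h, beside 11.8% and 16.5%. At 48 h against 24 h 3 of 4 were called higher, beside 4.09%. At 12 h against 0 h none was called, beside 45.4% of all kept probe sets called in either direction. The median log2 difference at 48 h against 12 h was 3.59 over the 4 genes, beside 0.05 over all kept probe sets. Their r with AT1G66810 was 0.913 for IRX15, 0.904 for GUT2, 0.903 for IRX15-L and 0.833 for IRX10L, which placed the first 3 among the 100 highest of all kept probe sets.

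IRX15 went furthest. Its signal was 4.7, 4.2 and 11.4 at 0 h, 4.3, 4.8 and 14.9 at 12 h, 5.9, 85.6 and 45.3 at 24 h, 457, 657.6 and 276.5 at 36 h, and 737.2, 674.8 and 842.3 after 48 h. All arrays of 0 and 12 h lay under the cutoff and far below those of 48 h, so the size of its fold is uncertain. IRX15 passed the filter through later times alone. Its calls against 0 and 12 h in the counts above could thus hardly be other than upward. The log2 difference at 48 h against 12 h was 6.79 ± 0.82 for IRX15 (SE; limma, adjusted p = 0.000178). GUT2 had 206.1, 143.6 and 125 at 0 h, 123.1, 133.2 and 83.9 at 12 h, 118.4, 237.6 and 180.5 at 24 h, 1066.4, 1268.5 and 352.2 at 36 h, and 1581.6, 974 and 1004.7 after 48 h. Replicate 2 of 24 h was the highest and replicate 3 of 36 h the lowest of its time for GUT2, as for AT1G66810, but the 24 h departure was smaller. GUT2 at 48 h against 12 h rose 10.4-fold (adjusted p = 0.000299) and IRX15-L 13.9-fold (adjusted p = 0.000894).

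IRX10L rose least, 1.69-fold at 48 h against 12 h (0.76 ± 0.20 on the log2 scale, limma, adjusted p = 0.0166) and 1.46-fold at 48 h against 0 h (adjusted p = 0.0352). Both of its calls ended when arrays were centred on their median, at 0.49 (adjusted p = 0.125) against 12 h and 0.33 (adjusted p = 0.235) against 0 h. The call against 0 h also ended with no filter on dim probe sets (adjusted p = 0.0546), after quantile normalization (0.41, adjusted p = 0.0887) and without replicate 3 of 0 h (adjusted p = 0.121), replicate 1 of 48 h (0.128) or replicate 3 of 48 h (0.105). The call against 12 h ended without replicate 1 of 12 h (adjusted p = 0.0504), replicate 1 of 48 h (0.0725) or replicate 3 of 48 h (0.0571). The r within times was 0.677 for IRX15, 0.572 for IRX15-L, 0.535 for GUT2 and 0.191 for IRX10L.

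**Figure D4:**
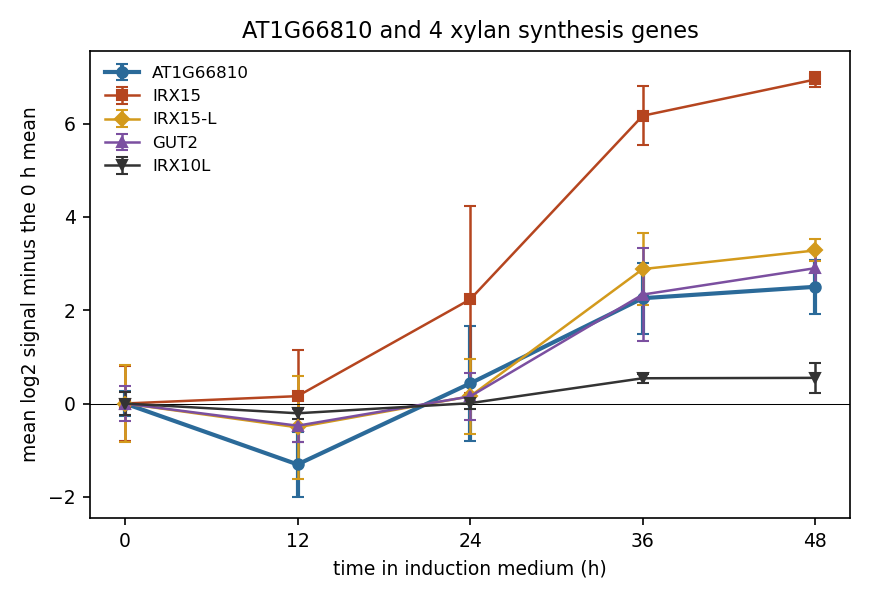
Log2 signal against hours for AT1G66810 and the 4 measured genes of xylan synthesis, each shown as the difference from its own mean at 0 h; points are means of 3 arrays, bars their SD, and lines join the times. AT1G66810 has the lowest 12 h point, at -1.31, and IRX15 the highest 48 h point, at 6.95.

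The measured lignin genes ranged from close to AT1G66810 to opposed to it. Of 23 listed genes 5 were measured, with r from -0.567 for CCR2 to 0.919 for PRX66. PRX66, described above among the nearest profiles, stood higher by 4.75 on the log2 scale at 48 h against 12 h. It was chosen by its likeness to AT1G66810 and is left out of the counts that follow, so these do not speak for the whole list. Of the other 4, 2 were called higher and 1 lower at 48 h against 0 h, beside 33.2% and 23.6% of all kept probe sets. At 48 h against 12 h 1 of the 4 was called lower and none higher, beside 9.83% and 16.5%. The peroxidases PRX52 (AT5G05340) and PRX72 (AT5G66390) were the 2 higher ones, by 4.02 (adjusted p = 0.00982) and 6.35 (adjusted p = 0.00302) on the log2 scale. PRX52 had 17.8, 1.6 and 44.5 at 0 h, a mean under the cutoff. It had its highest mean, 890, at 24 h, and its r with AT1G66810 was -0.048. PRX72 lay between 103.3 and 225.6 at 48 h and between 1.1 and 3.6, under the cutoff, at 0 h, and its r was 0.543. Both peroxidases passed the filter through cultured times alone. A call against 0 h could thus hardly be other than upward for them, and the sizes are uncertain.

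CCR2 (AT1G80820), a cinnamoyl-CoA reductase of the lignin pathway, had 21.6, 10.1 and 23.2 at 48 h, under the cutoff, against 89, 353 and 563.6 at 12 h. CCR2 fell by 3.92 ± 0.95 on the log2 scale at 48 h against 12 h (SE; limma, adjusted p = 0.00998), and its r with AT1G66810 was -0.567. CCR2 passed the filter through 0 and 12 h alone. Its calls at 48 h in the counts above could thus hardly be other than lower, and the sizes are uncertain. Its fall at 48 h against 0 h (-2.68, adjusted p = 0.0291) ended as a call without replicate 1 of 0 h (adjusted p = 0.0593), replicate 2 of 0 h (0.0902) or replicate 2 of 48 h (0.0961). HCT (AT5G48930), an acyltransferase of the same pathway, had 2219.4, 2022.4 and 1801.8 at 48 h, against 1511.5, 2215.2 and 2433.9 at 12 h, and the groups overlapped. The difference for HCT at 48 h against 12 h had a 95% interval of -0.60 to 0.59. In between, HCT fell by 1.13 on the log2 scale at 24 h against 0 h (limma, adjusted p = 0.00436), a call that stood under every alternative run. It also fell by 0.78 at 36 h against 0 h (adjusted p = 0.0296), but that call ended with the replicate number as a block (-0.42, adjusted p = 0.160) and without replicate 1 of 0 h (0.0513), replicate 3 of 0 h (0.0762) or replicate 3 of 36 h (-0.47, adjusted p = 0.134). Its difference of 1.01 at 48 h against 24 h (adjusted p = 0.0492) ended as a call when any of 12 of the 15 arrays was left out, at adjusted p of 0.0535 to 0.160, with no filter (0.0791) and with arrays centred on their median (0.0835). HCT had r = -0.030 over all arrays but 0.721 for the deviations from the time means, close to the median of the nearest 20.

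Of 8 listed genes tied to the death of xylem cells 2 were measured. The serine carboxypeptidase gene scpl48 (AT3G45010), known from xylem, had 549.8, 540.8 and 545.2 at 0 h, 615.2, 567.2 and 1069.1 at 12 h, 2199, 2264.3 and 1683.3 at 24 h, 5094.3, 7139.4 and 6081.6 at 36 h, and 5480.6, 9286.5 and 9427.9 after 48 h. Its 24 h arrays all lay above 0 and 12 h, and it had no low point at 12 h, in contrast to the signals of AT1G66810. The scpl48 signal at 48 h against 0 h rose 14.4-fold (adjusted p = 7.79e-07), and its r with AT1G66810 was 0.845 over all arrays and 0.178 within times. GAMMA-VPE (AT4G32940), a vacuolar protease, did share the low point. It fell 5.28-fold at 12 h against 0 h (adjusted p = 0.000562) and rose 4.08-fold at 48 h against 12 h (adjusted p = 0.00456), and its r was 0.391. GAMMA-VPE at 48 h against 0 h differed by -0.37 with a 95% interval of -1.29 to 0.55.

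**Figure D5:**
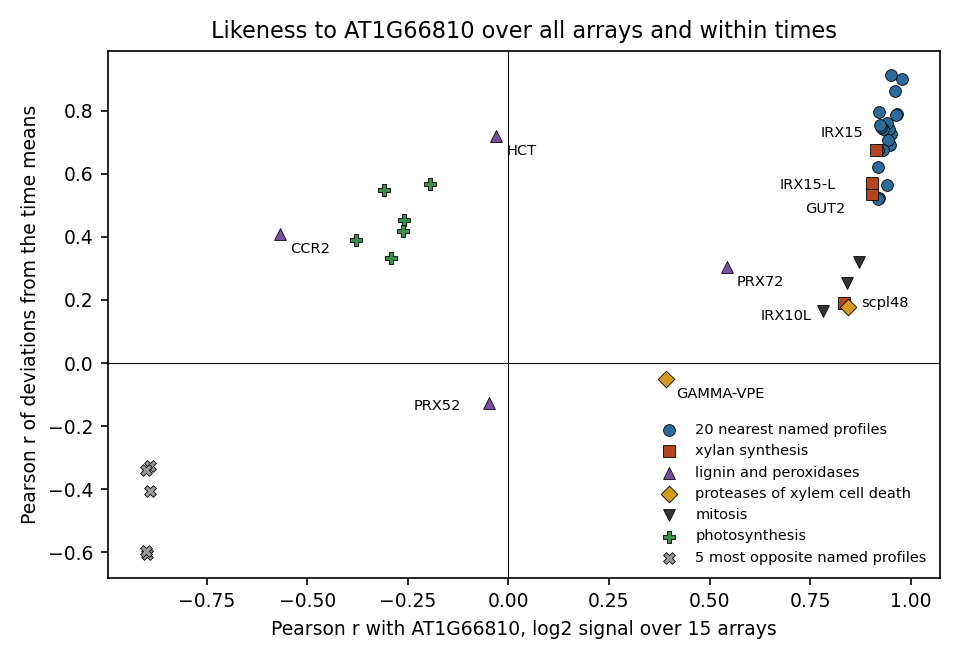
Pearson's r with AT1G66810 over the 15 arrays (horizontal) against r of the deviations from the time means (vertical) for the 20 nearest named profiles, the lists and the 5 most opposite named profiles. The nearest 20 and 3 of the 4 xylan genes lie at the upper right. The scpl48 and mitosis genes share the time course but less of the spread within times. HCT shares the spread but not the time course. The photosynthesis genes (r within times 0.332 to 0.567) and CCR2 (0.408) also share part of the spread without the time course.

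Of the CCCH zinc finger genes, AT1G66810 was nearly alone in being measured. Among 11 listed genes of the arginine-rich tandem CCCH family, which act in stress and hormone responses, 1 was measured, TZF8 (AT5G12850). TZF8 had 242.6, 183.6 and 270.8 at 0 h, 169.1, 201.6 and 182.4 at 12 h, 309.7, 265.4 and 235.6 at 24 h, 392, 267.6 and 270 at 36 h, and 438.3, 315.2 and 376.3 after 48 h. It rose 2.03-fold at 48 h against 12 h (limma, adjusted p = 0.00629), against 14.02-fold for AT1G66810, and the difference between the genes was not tested. The size of the fold of AT1G66810 is uncertain, since its 12 h mean lay under the cutoff. TZF8 at 48 h against 0 h rose by 0.70 on the log2 scale (adjusted p = 0.0188). That call ended without replicate 2 of 0 h (adjusted p = 0.0744) or replicate 1 of 48 h (0.0731), with arrays centred on their median (0.48, adjusted p = 0.0906) and after quantile normalization (0.51, adjusted p = 0.0644). Its r with AT1G66810 was 0.792, or 0.122 within times. None of the 21 listed transcription factors of xylem or the 5 listed cellulose synthase and cellulose wall genes was paired with a probe set, so the known regulators of AT1G66810 were not analysed here.

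The 5 named profiles most opposite to AT1G66810 had r of about -0.9, and 4 probe sets without a single gene name lay beyond them, down to r = -0.917. The 5 were AT3G46450 and AT5G12470 (r = -0.900 each), AT1G48100 (r = -0.899), COR15A (r = -0.892) and AT5G09880 (r = -0.890). AT1G48100, a pectin lyase-like protein of the polygalacturonase kind like AT1G23460, had 108, 66.5 and 111.2 at 0 h, 529.1, 479.1 and 389.4 at 12 h, 99.7, 83.5 and 129.7 at 24 h, 48.3, 32.9 and 54 at 36 h, and 36.3, 28.9 and 60.5 after 48 h. It was thus highest where AT1G66810 was lowest. COR15A, a chloroplast protein that protects membranes in the cold, had 9.1, 3.5 and 32.1 at 48 h, all under the cutoff, against 7857.8, 1135.4 and 8698.9 at 12 h.

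The neighbouring genes on chromosome 1 did not share the profile of AT1G66810. Of the 5 genes on either side in the order of the gene table, 5 were measured in all. Their r was -0.508 for AT1G66760, -0.580 for AT1G66770, -0.457 for AT1G66780, -0.394 for AT1G66820 and 0.290 for AT1G66830. At 48 h against 0 h AT1G66760 fell by 2.01 (adjusted p = 0.00174) and AT1G66820 fell by 1.12 (adjusted p = 0.0164) on the log2 scale. The call of AT1G66820 ended without replicate 1 of 0 h (adjusted p = 0.0717), replicate 3 of 0 h (0.0558) or replicate 1 of 48 h (0.0520). The other 3 were not called, with differences of -0.59, 0.34 and 3.22, and the last, AT1G66830, was called at 5.05 without replicate 1 of 48 h (adjusted p = 0.00972).

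Markers of other cell types moved over the same hours, and their part in the AT1G66810 values was not tested. All 6 of 6 measured genes of photosynthetic leaf cells were called lower at 48 h against 0 h, beside 23.6% of all kept probe sets. None of the 6 was called at 48 h against 12 h, beside 26.3% called in either direction. Their summed signal was 144116 to 187394 at 0 h, 5383 to 9350 at 12 h, 7271 to 12353 at 24 h, 2762 to 8415 after 36 h and 3289 to 6211 after 48 h, with none at 0. LHCB4.2, a light-harvesting protein, fell by 6.83 on the log2 scale at 48 h against 0 h (adjusted p = 5.86e-06). The large loss of these transcripts lay between 0 and 12 h, where AT1G66810 had its low point. Their r with AT1G66810 ran from -0.378 for RCA to -0.195 for PSAN over all arrays. For the deviations from the time means it ran from 0.332 for LHCB4.2 to 0.567 for PSAN. Sharing the spread within times was thus not particular to wall genes.

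All 3 measured genes of mitosis were called higher at 48 h against 0 h and against 12 h, beside 33.2% and 16.5% of all kept probe sets. Their summed signal was 266 to 330 at 0 h, 346 to 432 at 12 h, 975 to 5544 at 24 h, 4120 to 11347 after 36 h and 7200 to 7825 after 48 h, with none at 0. UBC20, a ubiquitin-conjugating enzyme of mitosis, rose by 5.09 at 48 h against 0 h (adjusted p = 4.48e-06), and the kinase genes AUR1 and AUR2 had r of 0.871 and 0.842 with AT1G66810. In contrast to AT1G66810, the highest 24 h array of AUR1 was replicate 1, with 934.6, 480.5 and 194.1 on the 3 arrays.

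The list for procambium and cambium, the stem cells of the vasculature, held 3 measured genes, namely CLE41, CLE44 and MOL1. These are signalling genes, and the cells that express them were not told apart here, so they do not measure stem cells. All 3 were called higher at 48 h against 0 h, beside 33.2% of all kept probe sets. CLE44, a peptide gene, rose by 3.15 (limma, adjusted p = 0.000255). Of the 2 phloem genes OPS, which acts in early phloem cells, rose by 3.82 (adjusted p = 1.72e-05) and SWEET11, a sucrose transporter, fell by 6.74 (adjusted p = 3.34e-08). Both genes of epidermis and guard cells, regulators of hair and stomatal fate, were called lower at 48 h against 0 h, beside 23.6% of all kept probe sets. TRY fell by 4.68 (limma, adjusted p = 0.000173) and FAMA fell by 1.94 (adjusted p = 0.00307). TRY had 3.1, 10.7 and 1.7 at 48 h, under the cutoff, and passed the filter through 0 and 12 h alone. A call at 48 h could thus hardly be other than lower for TRY. PEX4, a gene often used as a steady reference, rose by 0.62 (adjusted p = 0.0283), but its call ended when arrays were centred on their median (0.39, adjusted p = 0.206) and without replicate 3 of 0 h (0.102) or replicate 1 of 48 h (0.113).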

How the data were processed

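RNA of 15 leaf-disk samples was measured on 1-colour Affymetrix arrays. The authors deposited linear intensity values; the submitters' processing notes name GCOS and MAS5, whose versions were not given in the sources used here. Each array had, by its values, been scaled to a common trimmed mean, which hides a change shared by most transcripts. Log2 of these intensities was analysed without an offset or another normalization. After leaving out 64 control probe sets, a probe set was kept where its highest time mean reached percentile 30 of all time means, a signal of 34.2. limma 3.58.1 in R 4.3.3 fitted 5 time means over 15 arrays (10 residual degrees of freedom), with two-sided moderated tests and Benjamini-Hochberg adjustment over all kept probe sets. The fit was tested on simulated data.

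Genes were named through the platform annotation, in which 13513 probe sets had 1 gene, 503 several and 8730 were not listed; 13436 matched a locus of the TAIR10.1 table, used for names and gene order only. Of 140 listed genes, 30 were paired with a probe set. Named were AT1G66810, its relative AT1G68200, the 20 named probe sets with the highest and 5 with the lowest r, all measured genes of the CCCH, regulator and wall lists, and from each marker list the largest change at 48 h against 0 h; AUR1, AUR2, OPS, FAMA and the genes beside AT1G66810 on the chromosome were added after their values were seen. CLE41, MOL1, RCA and PSAN were also named outside this rule, RCA and PSAN as the ends of a range of r. The members and lists were chosen with earlier results of these data known. Planned looks at promoter and protein sequences were not made, and no sequence was used here.

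Replicate numbers in the labels were checked by correlating deviations from the time means. Same-numbered arrays correlated at 0.116 to 0.135 for 12 and 0 h, 0.151 to 0.451 for 24 and 12 h, 0.119 to 0.201 for 48 and 12 h and 0.244 to 0.356 for 48 and 24 h, all above 0.1, so these pairs count as paired; 24 and 0 h (from 0.0382) and 48 and 0 h (from 0.0177) do not. Pairs with 36 h have only 2 numbers, at 0.0423 and 0.0563 with 0 h, 0.21 and 0.314 with 12 h, 0.289 and 0.497 with 24 h, and 0.315 and 0.477 with 48 h. The main fit does not use the pairing, and the replicate block was run as an alternative. The median log2 signal shifted by -0.04, 0.06, 0.15 and 0.19 at 12, 24, 36 and 48 h against 0 h. Alternatives changed the offset, filter, normalization, variance trend, arrays fitted, replicate block and each array left out.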

Additional observations from a re-analysis of the deposited data

How the results depend on the processing

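For AT1G66810 the rises at 36 and 48 h against 0 and 12 h kept their direction and their call under all 23 alternatives. Leaving out 1 array at a time gave log2 differences of 2.02 to 2.70 (36 h against 0 h), 2.19 to 2.76 (48 h against 0 h), 3.29 to 4.00 (36 h against 12 h) and 3.50 to 4.198 (48 h against 12 h). The low point at 12 h against 0 h was called with only the arrays of those times (-1.31, adjusted p = 0.0486), and ranged from -1.70 to -1.04 over single arrays left out. The difference at 24 h against 0 h ranged from -0.28 to 0.83, with the negative value without replicate 2 of 24 h. At 48 h against 36 h it ranged from -0.19 to 0.50, negative without replicate 3 of 36 h (-0.19) or replicate 1 of 48 h (-0.07). With the replicate number as a block, which leaves out the unnumbered array, it was -0.15. The replicate block changed no other direction and no call of AT1G66810. With it the limma adjusted p was 0.0834 for 12 h against 0 h, 0.00140 for 48 h against 12 h and 0.0511 for 48 h against 24 h. The difference at 48 h against 24 h was called with log2 of signal plus 16 (1.88, adjusted p = 0.0339), a filter at percentile 50 (2.07, adjusted p = 0.0391) and a variance trend (2.07, adjusted p = 0.0410). It ranged from 1.67 to 2.79 over single arrays left out, and was called without replicate 2 of 24 h (adjusted p = 0.0167) or replicate 3 of 36 h (adjusted p = 0.0478). The number of probe sets called at 24 h against 12 h was 218, and 78 with no filter, 329 with a trend, 416 with the block and 0 to 329 over single arrays left out. At 36 h against 24 h it was 20, and 85 with the offset of 16, 43 with the stricter filter, 77 with the block and 0 to 60 over arrays left out. At 48 h against 24 h it was 1140, and 1727 with the block and 407 to 1309 over arrays left out. The ranges over arrays left out were 1494 to 3434 at 36 h against 12 h (3151 called) and 2976 to 5023 at 48 h against 12 h (4694 called). For the gene lists and single genes other than AT1G66810 the same alternatives were chosen after seeing the data. Lignin genes higher at 48 h against 0 h numbered 1 in place of 2 with the stricter filter, and those lower 0 to 1 over arrays left out. PRX72 was called at 48 h against 12 h without replicate 3 of 12 h (4.49, adjusted p = 0.0301). Of the 20 nearest profiles, 9 were shared under Spearman's correlation, 2 over time means, 10 over cultured arrays, 16 after quantile normalization, 19 after centring, 17 with the offset, and 12 to 20 over arrays left out. GAMMA-VPE at 48 h against 0 h ranged from -0.73 to 0.058 over arrays left out, positive without replicate 1 of 0 h. HCT at 48 h against 12 h turned to 0.045 after quantile normalization and ranged from -0.21 to 0.13 over arrays left out, positive without replicate 2 or 3 of 12 h or replicate 3 of 48 h. The cause of these changes was not tested. Folds that rest on signals under 34.2 are limited by background, and 3 arrays per time limit the precision.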
